A study of Nicotiana benthamiana with 7 samples.

Results

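dsRNA-midGFP is a double-stranded RNA of 139 nt that matches an inner stretch of the GFP coding sequence, and midGFP is that stretch, GFP positions 294 to 432. The results concern midGFP and the 40 nt directly next to it on each side, called here the 5′ shoulder (positions 254 to 293) and the 3′ shoulder (positions 433 to 472). The window is defined by position, was chosen with earlier results of these data known, and holds 219 of the 1931 positions of the coverage table. Coverage is the number of small RNA reads listed over a position, given without strand or read length.

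In plants, Dicer-like proteins (DCLs) cut long dsRNA inside the cell into small interfering RNAs (siRNAs) of fixed sizes, which guide Argonaute proteins to matching transcripts. When RNA-dependent RNA polymerase 6 (RDR6) copies a targeted transcript into new dsRNA, secondary siRNAs can arise on both sides of the targeted stretch, a process called transitivity. A dsRNA that stays outside the cells meets other nucleases, whose products need not have a fixed size. The stretches directly next to a sprayed sequence are thus where reads from the sprayed molecule and reads from a transcript can be read side by side.

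Small RNA was sequenced from the leaves of 7 *Nicotiana benthamiana* plants, sampled on day 5 after high-pressure spraying. The plants are listed as 10 cm tall and the pressure as 6 bar, and the study's methods give ranges that include these values. In 16C-ds, 3 plants homozygous for line 16C, a line that expresses a GFP transgene, were sprayed with dsRNA-midGFP. In WT-ds, 3 wildtype plants without GFP received the same dsRNA, so the sequence of midGFP is shared by the spray in both groups and by a transcript in 16C-ds only. In 16C-w, 1 plant of line 16C was sprayed with water, and its coverage was not analysed here. For each plant the material was a pair of mature sprayed leaves, and line 16C is the only GFP line used. Because the tissue is bulk leaf, fewer cells with GFP-matching RNA and less such RNA per cell cannot be told apart. The tables used here hold GFP-matching reads only, so the leaf tissue was not checked against marker genes.

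The 6 dsRNA-sprayed libraries held 7186316 to 8824820 total reads. A position listed with 0 reads allows up to 3, which is 0.340 to 0.417 reads per 1000000 total reads, and this limit covers counting error only. The authors' counts of reads on their GFP region of interest and their coverage do not fully match. The bases of the counted reads, without those of 64 nt or more, were 1.88 to 2.50 times the summed coverage of that region in 5 libraries and 6.15 times in 16C-ds replicate 2, which had the most counted GFP reads per 1000000 total reads (617, against 425 to 553 in the others) and the lowest coverage. Values listed for a group follow the order of its replicates, 1 to 3. Levels of midGFP and of the shoulders are given with and without 16C-ds replicate 2, and the shape of the profile, which is scaled within each library, is given for each library.

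midGFP starts with the last base of GFP codon 98 and ends with the last base of codon 144. It is shown 5′ to 3′ in the sense orientation, read from the deposited region of interest, with the stretch of highest coverage (positions 368 to 403, see the profiles scaled to the midGFP mean) in capitals.

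midGFP: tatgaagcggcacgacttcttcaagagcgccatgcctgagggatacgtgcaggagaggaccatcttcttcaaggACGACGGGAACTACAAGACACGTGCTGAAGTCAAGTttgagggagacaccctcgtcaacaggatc

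The boundaries are shown because coverage did not stop exactly there. In the first sequence below the 15 nt that open midGFP are in capitals, and in the other the capitals mark 5 nt of GFP directly behind midGFP that are also the opening bases of the SacI site GAGCTC.

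5′ boundary, positions 279 to 308: aagatacccagatcaTATGAAGCGGCACGA

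3′ boundary, positions 418 to 447: ctcgtcaacaggatcGAGCTtaagggaatc

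Over midGFP, coverage per 1000000 total reads overlapped between plants with and without the GFP transgene, whereas raw coverage was lower in each plant with it. Mean raw coverage was 277, 115 and 224 reads in 16C-ds against 344, 282 and 296 reads in WT-ds, fully apart, with a log2 ratio of -0.58 (p = 0.1, exact permutation, the smallest possible). Total reads separated the groups in the same direction, so raw coverage does not allow for depth. They were 7186316, 7511064 and 7375715 in 16C-ds against 8363721, 8824820 and 8434532 in WT-ds. Without the division by total reads, 59 positions of the window had each 16C-ds library below each WT-ds library. Per 1000000 total reads this was 38.6, 15.4 and 30.4 in 16C-ds against 41.1, 31.98 and 35.1 in WT-ds, and the groups overlapped. The means were 28.1 ± 11.8 (SD, n = 3) and 36.1 ± 4.64 (SD, n = 3), a log2 ratio of -0.36 (p = 0.4, exact permutation). Without 16C-ds replicate 2, the library whose read count and coverage conflict, the log2 ratio was -0.066, and without 16C-ds replicate 1 it was -0.66. With all 6 libraries it was -0.27 per miR159 reads and -0.062 per 24-nt reads. Per 1000000 total reads, 0 of the 139 midGFP positions had each 16C-ds library above or each below each WT-ds library. Over all 1931 positions of the table the groups lay apart with 16C-ds above at 39% and with 16C-ds below at 0%. Without 16C-ds replicate 1, 88 positions of the window had both remaining 16C-ds libraries below the WT-ds libraries. For this count and for the 59 positions without a denominator, the share over all 1931 positions was not worked out. Neither count is thus read as a result about midGFP.

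**Figure D1:**
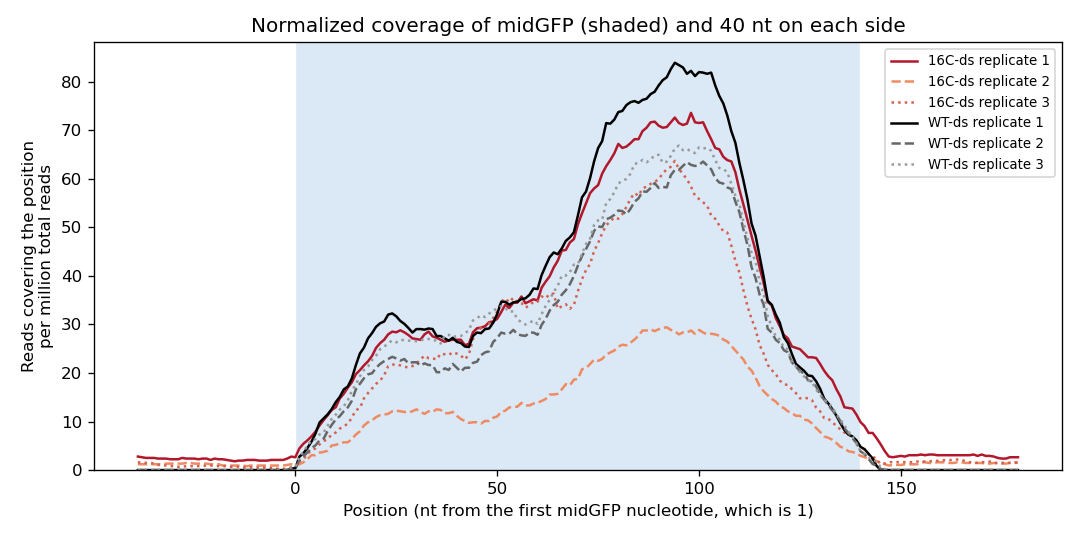
Reads covering each position per 1000000 total reads (y axis) against the distance from the first midGFP nucleotide (x axis, nt), with 1 line per library and midGFP shaded. The 3 WT-ds lines and 16C-ds replicates 1 and 3 interleave over midGFP with peaks of 63.6 to 83.9 reads per 1000000, 16C-ds replicate 2 peaks at 29.4, and on both sides of midGFP only the 16C-ds lines stay above 0.

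Groups were compared by exact permutation tests of their means, all 2-sided, for which the smallest possible p is 0.1 with 3 libraries against 3. The level, 2 shoulder levels, 2 relative shoulder levels and 10 measures of shape make 15 comparisons of 16C-ds with WT-ds, and the lowest p adjusted over them (Benjamini-Hochberg) was 0.375, so none passed a threshold of 0.05. The 16C-ds and WT-ds values lay fully apart in 4 of the 15, all of them shoulder values, and overlapped in 11. Which shape values separated the groups depended on the processing. With the authors' moving average over 10 nt in place of raw coverage, the peak position (-5 nt in 16C-ds), the number of positions at 50% of the maximum or more (6 more) and the length of the 3′ edge (3 nt longer) also reached the smallest p (p = 0.1 each, exact permutation).

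The profile rose slowly from the 5′ end and fell steeply near the 3′ end in each of the 6 libraries. The 5′ terminal 46 nt held 18.7%, 19.2% and 18.4% of midGFP coverage in 16C-ds against 18.4%, 17.8% and 19.7% in WT-ds. The central 46 nt held 43.6%, 42.3% and 46.9% in 16C-ds against 44.1%, 43.1% and 43.03% in WT-ds. The 3′ terminal 47 nt held 37.7%, 38.5% and 34.6% in 16C-ds against 37.5%, 39.2% and 37.2% in WT-ds. The central and 3′ parts thus each held more coverage than the 5′ part in 6 of 6 libraries, and for none of the 3 parts did the groups lie apart (p = 0.8, 0.8 and 0.6, exact permutation). The centre of coverage, counted from 1 at the first midGFP nucleotide, was nucleotide 77.9 ± 0.97 (SD, n = 3) in 16C-ds against 78.1 ± 0.80 (SD, n = 3) in WT-ds (p = 0.7, exact permutation).

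The highest raw coverage was reached at GFP positions 391, 385 and 387 in 16C-ds, with 529, 221 and 470 reads. In WT-ds it was reached at positions 387, 394 and 388, with 702, 561 and 564 reads. These 6 maxima lay within 10 nt of each other, and in each library at least 6 neighbouring positions came within 5% of the maximum, so the peak was broad (difference of the means -2 nt, exact permutation test, p = 0.6). The maximum was 1.91, 1.92 and 2.10 times the midGFP mean in 16C-ds against 2.04, 1.99 and 1.90 times in WT-ds (p = 1, exact permutation). At least 50% of the maximum was reached over 56, 55 and 63 positions in 16C-ds and over 54, 54 and 57 positions in WT-ds (p = 0.5, exact permutation).

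To compare shapes, coverage was divided by the library's own midGFP mean. The mean scaled profile of the 6 libraries was at or above 1.5 over a single stretch of 36 nt, positions 368 to 403, which is referred to as the hot spot. This stretch had 1.76, 1.76 and 1.80 times the midGFP mean in 16C-ds against 1.86, 1.81 and 1.76 times in WT-ds. It took 45.5% to 46.6% of midGFP coverage in 16C-ds against 45.7% to 48.3% in WT-ds. The stretches at or below 0.5, the cold spots, were both ends of midGFP, positions 294 to 308 and positions 423 to 432. The 5′ cold spot had 0.298, 0.275 and 0.217 times the midGFP mean in 16C-ds against 0.279, 0.262 and 0.274 times in WT-ds. The 3′ cold spot had 0.420, 0.349 and 0.292 times in 16C-ds against 0.261, 0.330 and 0.308 times in WT-ds. In the mean of the 6 libraries the cold spots are thus the outermost 15 nt and 10 nt of midGFP, and their inner limits differ by library. At position 308 the values were 0.512, 0.477 and 0.406 times in 16C-ds against 0.526, 0.521 and 0.503 times in WT-ds. The thresholds define these stretches, and no test was made of them.

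**Figure D2:**
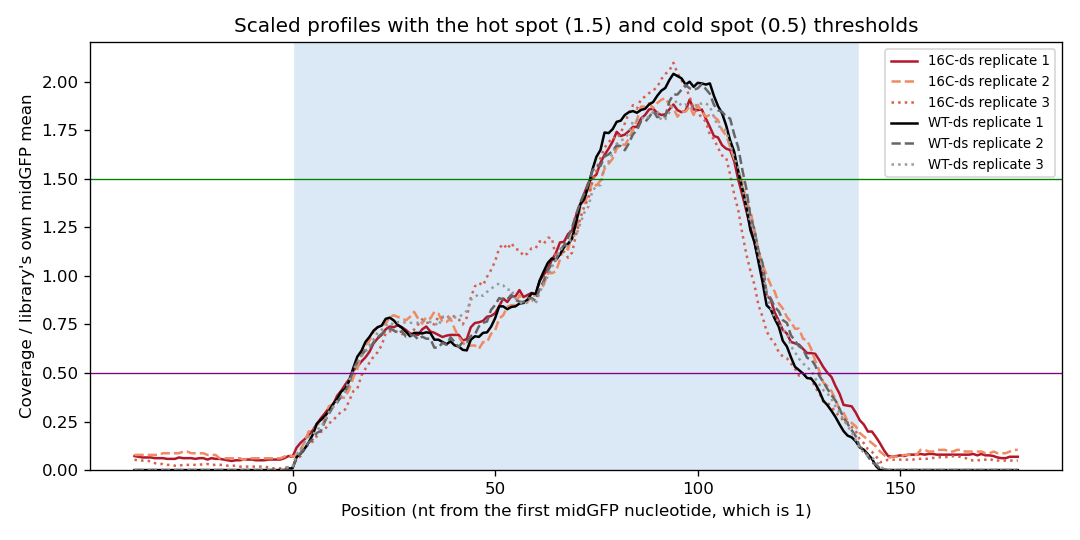
Coverage divided by the library's own midGFP mean (y axis) against the distance from the first midGFP nucleotide (x axis, nt), with midGFP shaded and the thresholds of the hot spot (1.5) and the cold spots (0.5) as horizontal lines. The 6 lines follow the same course, except that 16C-ds replicate 3 runs above the others between the plateau and the hot spot and below them after the peak.

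The hot spot sequence, the capitals in the midGFP sequence above, was not set apart by its GC content. It had 50% G and C, against 54.4% in the other 103 nt of midGFP and 46.4% in the 605 nt of the region of interest. A made up 36.1% of the hot spot and 26.2% of the rest of midGFP, and purines made up 63.9% and 55.3%. As a single stretch of one molecule, it allows no test of such a difference. The 5′ cold spot (tatgaagcggcacga) had 53.3% G and C, and the 3′ cold spot had 50%.

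Between the 5′ cold spot and the hot spot the profile had a plateau. It ran from position 318 to position 334, the 17 nt between the first and the last turning point of the smoothed mean profile in the 5′ part. Raw coverage there stayed between 190 and 207 reads in 16C-ds replicate 1, between 79 and 94 in replicate 2 and between 156 and 179 in replicate 3. In WT-ds it stayed between 219 and 265, 178 and 203, and 220 and 235 reads in replicates 1 to 3. The plateau was at 0.711, 0.776 and 0.751 times the midGFP mean in 16C-ds and at 0.693, 0.675 and 0.767 times in WT-ds, and the peak was 2.47 to 2.95 times as high as the plateau. The highest interior turning point of the smoothed mean profile lay at position 388, with 1.93 times the midGFP mean, and the lowest at position 334, with 0.709 times.

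16C-ds replicate 3 departed most from the common shape. It was the highest of the 6 libraries at 36 and the lowest at 58 of the 139 midGFP positions. Its longest run above the other 5 libraries was 21 nt, positions 337 to 357, with a mean of 1.09 times the midGFP mean against 0.815 to 0.918 times in the others. Its longest run below them was 27 nt, positions 393 to 419, with 1.11 times against 1.24 to 1.33 times. The library nearest to it was WT-ds replicate 3 in the former run and 16C-ds replicate 1 in the latter. 50% of the maximum was first reached at position 343 in 16C-ds replicate 3 and at 344 in WT-ds replicate 3. The other 4 libraries, 16C-ds replicate 1 among them, reached it between 354 and 356.

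On the scaled profile, few midGFP positions separated the groups. All 16C-ds libraries exceeded all WT-ds libraries at 5 of 139 positions (3.60%), namely 349, 350 and 430 to 432, and lay below them at 9 (6.47%), namely 309, 393 to 396 and 399 to 402. Over all 1931 positions the corresponding shares were 41.1% above and 0.57% below. The 9 positions below include 8 in the hot spot, whose group values are given above. After the mean coverage of the outer 30 nt of both shoulders was subtracted from each library, a choice made after the data were seen, 5 midGFP positions lay above and 16 below, and only 1 position in each direction was shared with the unsubtracted result. The 16 positions lay between 294 and 310. On the subtracted scale, the groups lay apart at 9.43% of all 1931 positions with 16C-ds above and at 58% with 16C-ds below.

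Coverage changed by small steps along midGFP. The mean step between adjacent positions, regardless of sign, was 2.90%, 3.32% and 3.42% of the midGFP mean in 16C-ds against 3.22%, 3.21% and 3.03% in WT-ds (p = 0.8, exact permutation). The single largest rise was 7.94%, 13.01% and 10.3% of the midGFP mean in 16C-ds against 9.01%, 7.80% and 9.79% in WT-ds. The 13.01% in 16C-ds replicate 2, the library of lowest coverage, corresponded to 15 reads. The single largest fall was -10.1%, -11.3% and -12.1% in 16C-ds against -11.9%, -15.6% and -12.8% in WT-ds. No step inside midGFP thus exceeded 15.6% of the mean coverage.

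For comparison, a separate block of coverage at GFP positions 164 to 187, outside the window, rose by 55.3% to 60.3% of its own mean in 1 step in the same 6 libraries. The block covers the match of siRNA#164, a synthetic siRNA that served as positive control in the study. The study describes no spraying of these 6 plants with siRNA#164. Mean coverage of the block was 1324 to 16753 reads in these libraries, and its source was not tested. It was singled out after its abrupt edges had been seen and is bounded by them, so the contrast with midGFP is a description with no test.

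Many steps inside midGFP had the same sign in all libraries of both groups. Of the 138 steps inside midGFP, 41 were rises in all 6 libraries and 35 were falls in all 6. Of the opening 24 steps, 21 rose in all 6 libraries, and the longest unbroken run of common rises reached positions 307 to 317. The longest run of common falls was 21 steps, reaching positions 397 to 417, and 26 of the 29 steps after the hot spot fell in all 6 libraries. After the maximum of the mean scaled profile, 0 of 45 steps rose in all 6.

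The 5 largest rises of the mean scaled profile led to positions 364, 367, 370, 363 and 308, of which 4 lie directly before or at the start of the hot spot. At position 364, where an A follows a C, coverage rose by 16, 15 and 18 reads in 16C-ds and by 31, 17 and 18 reads in WT-ds. The mean rise there was 7.99% of the midGFP mean. The rise to position 363 was less even, with 22, 1 and 21 reads in 16C-ds against 29, 19 and 1 reads in WT-ds. The 5 largest falls led to positions 408, 410, 405, 404 and 406, all in the first 7 nt behind the hot spot. At position 408 coverage fell by 25, 13 and 24 reads in 16C-ds and by 36, 30 and 36 reads in WT-ds, 10.7% of the midGFP mean on average. Each of these 10 steps had the same sign in 6 of 6 libraries. The surroundings of the largest mean rise and fall are shown with the base reached by the step in capitals.

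Largest rise, positions 354 to 374: catcttcttcAaggacgacgg

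Largest fall, positions 398 to 418: tcaagtttgaGggagacaccc

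**Figure D3:**
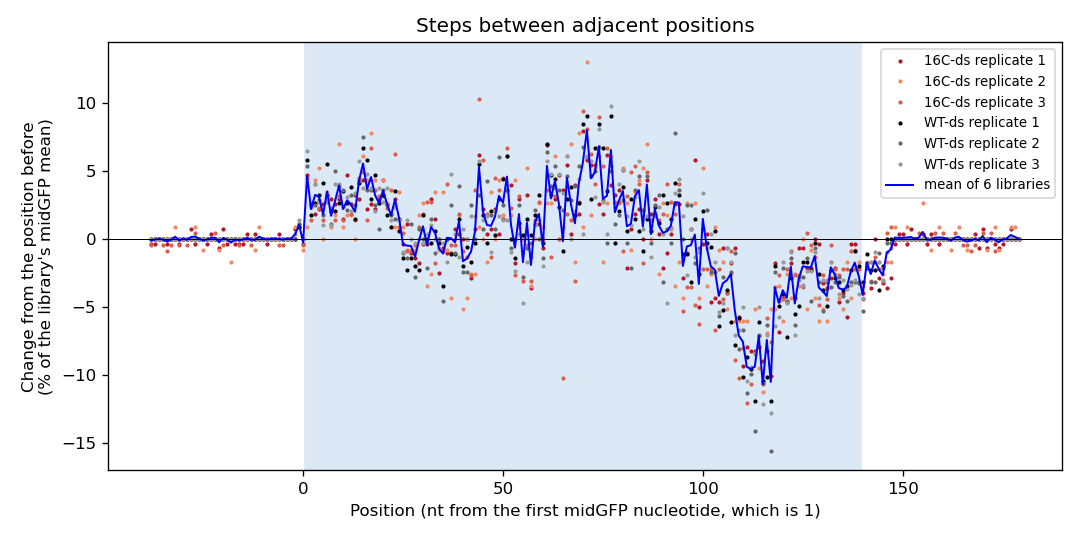
Change of coverage from the position before (y axis, % of the library's midGFP mean) against the distance from the first midGFP nucleotide (x axis, nt), with 1 point per library and step, the mean of the 6 libraries as a line and midGFP shaded. The mean steps are positive along the first part of midGFP, scatter around 0 on the plateau, reach 7.99% before the hot spot and fall to -10.7% behind it.

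Steps at neighbouring positions were alike. Their autocorrelation, a description with no test because neighbouring positions share reads, fell from 0.546 to 0.776 at a distance of 1 nt to 0.355 to 0.456 at 10 nt, and turned negative between 26 and 30 nt in the 6 libraries. A local maximum was present at 21 nt in 0, at 22 nt in 2 and at 24 nt in 1 of the 6 libraries. The hump itself, with rises first and falls last, keeps the autocorrelation above 0 at short distances, and it was not removed, so these values do not bear on the length of the reads. The coverage gives neither strand nor read length, and reads of these sizes could not be looked at separately.

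The 6 profiles correlated closely with each other, as a description over 139 neighbouring positions that share reads and sequence. Pearson's r was 0.959 to 0.993 for the 3 pairs within 16C-ds, 0.992 to 0.994 for the 3 pairs within WT-ds and 0.963 to 0.995 for the 9 pairs between the groups. The low values belonged to 16C-ds replicate 3, whose 5 pairs had 0.959 to 0.977, while the 10 pairs without it had 0.989 to 0.995. For the steps, which still carry the slopes of the common hump, r was 0.656 to 0.736 within 16C-ds, 0.833 to 0.868 within WT-ds and 0.679 to 0.844 between the groups. Step correlations were lowest for 16C-ds replicate 2 (0.656 to 0.747), the library with the lowest coverage of midGFP, and the part of depth in this was not tested.

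**Figure D4:**
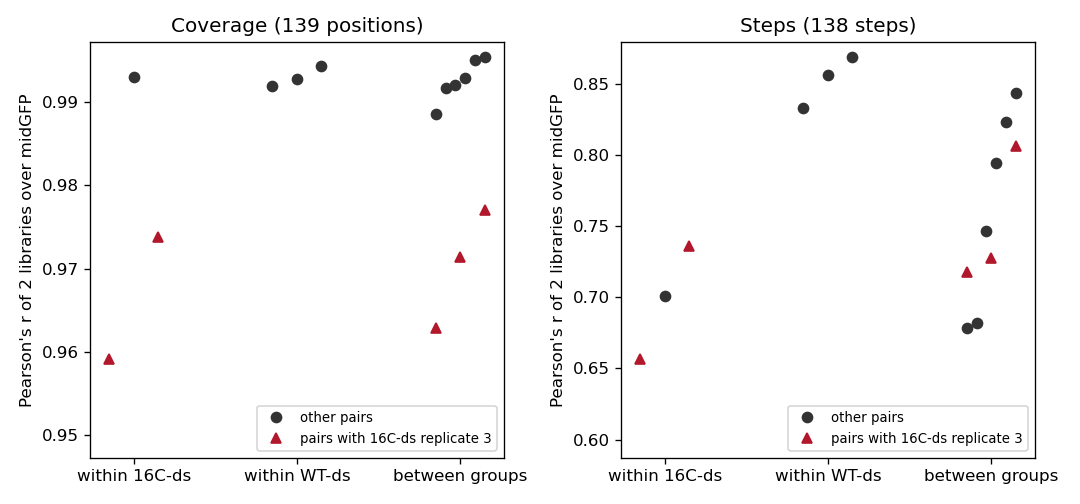
Pearson's r between the libraries of each pair over midGFP (y axis) for pairs within 16C-ds, within WT-ds and between the groups (x axis), for the coverage (left panel) and for its steps (right panel). Triangles are pairs with 16C-ds replicate 3, which lie at 0.959 to 0.977 in the left panel, below each of the other pairs.

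The 5′ edge of the profile was longer than the 3′ edge. The distance between the outermost positions with 10% and with 50% of the maximum was 56, 59 and 42 nt on the 5′ side in 16C-ds against 56, 56 and 45 nt in WT-ds. On the 3′ side it was 27, 22 and 26 nt in 16C-ds against 20, 22 and 22 nt in WT-ds. In 6 of 6 libraries the 5′ edge was the longer one, by 29.2 ± 8.28 nt (SD, n = 6, 2-sided exact sign-flip permutation test, p = 0.03125, the smallest possible, chosen after the values had been seen). Between the groups the means were 52.3 nt each on the 5′ side (p = 1, exact permutation) and 25 ± 2.65 nt in 16C-ds against 21.3 ± 1.15 nt in WT-ds (SD, n = 3) on the 3′ side (p = 0.3, exact permutation). The 3′ edge reached p = 0.1 without 16C-ds replicate 2, with a difference of 5.17 nt, and when measured from 20% to 80% of the maximum, with 3.33 nt (exact permutation). On the 3′ side, the outermost position with 10% of the maximum was 436, 432 and 431 in 16C-ds against 428, 431 and 431 in WT-ds, so 16C-ds replicate 1 had its edge within the shoulder.

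At the 5′ boundary, WT-ds coverage began within 3 nt of midGFP. The last shoulder position, 293, had 3, 3 and 5 reads in WT-ds, position 291 had 0, 0 and 1, and there was no read from position 254 to 290. At position 294, the first of midGFP, coverage was 23, 18 and 24 reads, a step of 20, 15 and 19 reads. In 16C-ds, position 293 had 19, 8 and 3 reads and position 294 had 32, 9 and 13, a step of 13, 1 and 10 reads. As a percentage of the midGFP mean the step into midGFP was 3.34 ± 2.14% (SD, n = 3) in 16C-ds against 5.85 ± 0.55% (SD, n = 3) in WT-ds, with each 16C-ds library lower (p = 0.1, exact permutation, chosen after the values had been seen). Per 1000000 total reads the groups overlapped, with 1.81, 0.133 and 1.36 in 16C-ds against 2.39, 1.70 and 2.25 in WT-ds (p = 0.2, exact permutation).

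The whole 5′ shoulder was covered in 16C-ds and not in WT-ds. Mean raw coverage was 16.2, 8.45 and 5.70 reads in 16C-ds against 0.15, 0.15 and 0.275 reads in WT-ds. Each of its 40 positions had at least 2 reads in each 16C-ds library, with 13 to 20 reads in replicate 1, 6 to 11 in replicate 2 and 2 to 12 in replicate 3. The highest values were at positions 254 and 292 in replicate 1, at 266 and 267 in replicate 2 and at 254 in replicate 3. The lowest were at position 278, at position 281 and at positions 288 to 291. In WT-ds, 2, 2 and 3 of the 40 positions had a read. Per 1000000 total reads, 16C-ds had 1.38 ± 0.77 (SD, n = 3) and WT-ds 0.0225 ± 0.0088 (SD, n = 3), with the groups fully apart (p = 0.1, exact permutation, the smallest possible, adjusted p = 0.375). Against the limit of 3 reads per position and library in WT-ds, the 16C-ds mean was at least 3.94-fold higher, and without 16C-ds replicate 2 it was 1.51 reads per 1000000 and at least 4.31-fold higher. With the moving average, whose windows start at a position and reach into midGFP from the shoulder, the WT-ds mean was 0.60. The groups lay apart at 38 of the 40 positions (95%), the exceptions being 292 and 293. This count takes the listed reads as they are. At positions 287 to 291, 16C-ds replicate 3 had only 2 or 3 reads, within the limit of 3. As 39% of all positions of the table separated the groups in this direction, a covered shoulder is shared with other GFP positions and is not particular to it.

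**Figure D5:**
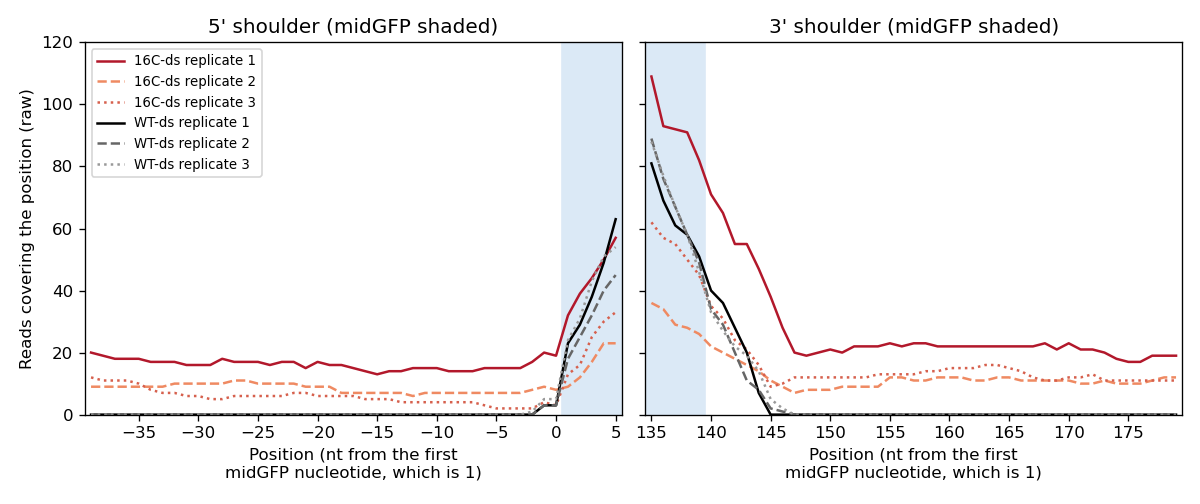
Raw reads covering each position (y axis) in the 5′ shoulder (left panel) and the 3′ shoulder (right panel) against the distance from the first midGFP nucleotide (x axis, nt), with 1 line per library and midGFP shaded. The WT-ds lines are at 0 outside midGFP except for up to 3 nt on the 5′ side and up to 7 nt on the 3′ side, while the 16C-ds lines lie between 4 and 23 reads over the outer 30 nt of both shoulders.

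Averaged over the 10 nt next to midGFP, coverage of the 5′ shoulder was not above that of its outer part, although 16C-ds replicate 1 had 1 of its 2 highest positions, 292, in this stretch. The 10 nt next to midGFP had 15.8, 7.40 and 3 reads on average in 16C-ds, and the outer 30 nt had 16.3, 8.80 and 6.60 reads. The inner part was thus 0.967, 0.841 and 0.455 times the outer part, below 1 in 3 of 3 libraries. Compared with the next stretch of the coding sequence, positions 188 to 253, the outer part had 0.766, 1.01 and 0.652 times the mean coverage in 16C-ds. In WT-ds that stretch had a mean of 0.0303, 0 and 0 reads. Within 16C-ds replicate 3, coverage fell from 12 reads at position 254 to 2 reads at position 290.

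On the 3′ side, coverage ran on past the last midGFP nucleotide in both groups. At position 432 it was 82, 26 and 45 reads in 16C-ds against 51, 49 and 46 in WT-ds. At position 433, the first of the shoulder, it was 71, 22 and 35 reads in 16C-ds against 40, 34 and 33 in WT-ds, which lack GFP. The step out of midGFP was -3.97 ± 0.50% (SD, n = 3) of the midGFP mean in 16C-ds against -4.30 ± 1.06% (SD, n = 3) in WT-ds (p = 0.7, exact permutation). In WT-ds, coverage at position 437 was 7, 8 and 14 reads and at position 438 it was 0, 2 and 5. From position 440 to the end of the shoulder it was 0 in each library.

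The 5 nt between 433 and 437 are the capitals in the 3′ boundary sequence. They read as the opening 5 of the 6 bases of a SacI site, which the study's methods give as an addition to the reverse primer for this dsRNA. Of the 358 units of summed WT-ds coverage in the 3′ shoulder, 348 (97.2%) lay on these 5 nt, and by library it was 100%, 97.1% and 94.3%. On the 5′ side the added site was SalI (GTCGAC), whose closing base differs from GFP position 293, so that 0 bases are shared there. In WT-ds, coverage on the 5′ side thus ran up to 3 nt past midGFP without a shared stretch. On the 3′ side it stopped at the end of the shared stretch or up to 2 nt behind it. In 16C-ds it went on over all 40 nt of both shoulders. Whether reads over positions 433 to 437 came from the added site was not tested.

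Behind position 439 the 3′ shoulder was covered in 16C-ds only. Over all its 40 nt, mean raw coverage was 26.3, 11.4 and 14.1 reads in 16C-ds against 3.28, 2.62 and 3.05 reads in WT-ds. The highest value of each of the 6 libraries was at position 433, and the lowest of 16C-ds were 17, 7 and 9 reads, at positions 468 and 469, at 440 and at 438. Per 1000000 total reads the means were 2.36 ± 1.14 (SD, n = 3) and 0.350 ± 0.048 (SD, n = 3), a log2 ratio of 2.75 with the groups fully apart (p = 0.1, exact permutation, the smallest possible, adjusted p = 0.375). The log2 ratio was 2.99 without 16C-ds replicate 2. It depended on where the shoulder starts, with 1.99 after a shift by 2 nt towards 5′, 3.81 after the same shift towards 3′ and 4.54 with the moving average. The groups lay apart at 36 of the 40 positions (90%), all but 433 to 436. In the outer 30 nt WT-ds had no read, and 16C-ds had 2.94, 1.43 and 1.73 reads per 1000000, at least 5.79-fold above the limit of 3 reads. For the outer 30 nt of the 5′ shoulder the values were 2.27, 1.17 and 0.895 reads per 1000000 and at least 4.12-fold. Without 16C-ds replicate 2 the 3′ and 5′ values were at least 6.64-fold and at least 4.51-fold.

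In 16C-ds, the inner 10 nt of the 3′ shoulder had 41.8, 13.3 and 18.2 reads and the outer 30 nt 21.1, 10.8 and 12.7 reads, so that the inner part was 1.98, 1.24 and 1.43 times the outer part. In WT-ds the inner 10 nt had 13.1, 10.5 and 12.2 reads, where the outer part had none. Over the outer 30 nt the 16C-ds coverage was even, with 17 to 23 reads in replicate 1, 8 to 12 in replicate 2 and 11 to 16 in replicate 3. It was 1.26, 1.33 and 0.984 times the mean of the coding sequence behind the shoulder, positions 473 to 792. In WT-ds that coding sequence was not free of reads, with a mean of 1.30, 0.594 and 0.628 reads. The 3′ outer part had 1.29, 1.22 and 1.93 times the coverage of the 5′ outer part, more in 3 of 3 libraries.

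Relative to the library's own midGFP mean, the 5′ shoulder stood at 5.84%, 7.33% and 2.54% in 16C-ds and at 0.0436%, 0.0531% and 0.0928% in WT-ds. The 3′ shoulder stood at 9.49%, 9.88% and 6.29% in 16C-ds and at 0.952%, 0.930% and 1.03% in WT-ds. For both shoulders every 16C-ds value was higher than every WT-ds value (p = 0.1, exact permutation, adjusted p = 0.375). The outer 30 nt of both shoulders together stood at 6.76%, 8.48% and 4.32% of midGFP in 16C-ds. These percentages divide by midGFP, whose coverage was lowest in 16C-ds replicate 2. Summed coverage of the whole region of interest was also lowest in that library, with 47004, 19999 and 36735 in 16C-ds. Whether its low midGFP coverage changed its percentages was not tested. Without that library the difference between the groups was 4.13 percentage points for the 5′ shoulder and 6.92 for the 3′ shoulder, against 5.18 and 7.58 with it.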

How the data were processed

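Small RNA of 7 *N. benthamiana* plants was sequenced (75 cycles, 250 ng RNA per library). The authors trimmed the 3′ adapter and mapped the reads to GFP. The submitters' processing notes name Bowtie2 and SAMtools, with versions not given in the sources used here. The authors deposited, as a signal, the raw coverage per position and its moving average over 10 nt, the latter also divided by total, miR159 or 24-nt reads, from which those totals were recovered. The authors also deposited read counts per length on the region of interest. The coverage reference is not given, and positions minus 852 were taken as GFP positions. The coverage headers give genotype and replicate number but not the treatment, so the 16C columns were assigned to 16C-ds by genotype and number alone, and the conflict between counts and coverage of 16C-ds replicate 2 was not resolved. 10 columns of per-sample values matched no sample by name and were not used, and the coverage of 16C-w was thus not analysed.

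Raw coverage was used for 3 16C-ds and 3 WT-ds libraries. The 15 values were compared by 2-sided exact permutation tests with Benjamini-Hochberg adjustment, using Python 3.11.15, numpy 2.4.6, pandas 2.3.3 and matplotlib 3.10.9. On simulated data, only the peak position, the centre of coverage and the count of positions with the groups apart were tested. The replicates are separate plants. Positions named were the ends and peaks, turning points of the mean scaled profile smoothed over 5 nt, spots at or above 1.5 or at or below 0.5, the 5 largest rises and falls, and the extremes of the shoulders. Positions 290 to 293 and 433 to 440, the block at positions 164 to 187 and the runs of 16C-ds replicate 3 were added after the values had been seen. Window, measures and rules were chosen with earlier results of these data known. Alternatives left out each library, took the replicate number as a block, used the moving average or other denominators, shifted midGFP by 2 nt or changed thresholds.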

Additional observations from a re-analysis of the deposited data

How the results depend on the processing

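None of the 15 comparisons reached a p below 0.05 in any setting, which 3 libraries against 3 do not allow, and the 4 shoulder comparisons kept their direction in each setting run, though the size of the shoulder levels moved with the placement of midGFP and the moving average. With 1 library left out, directions turned for the share of the 5′ part (-0.31 to 0.67 percentage points), of the central part (-0.42 to 1.89) and of the 3′ part (-1.78 to 0.14), for the centre of coverage (-0.62 to 0.29 nt), the peak position (-3.67 to 0.17 nt), the peak over the mean (-0.065 to 0.030) and the mean step (-0.041 to 0.22 percentage points). The mean step also turned with the moving average (-0.12). The difference in 5′ edge length was 0 nt in the main comparison, and with 1 library left out it ran from -3.67 to 5.17 nt. The number of window positions with 16C-ds below WT-ds per 1000000 total reads, 0 in the main comparison, was 59 without a denominator and ran from 0 to 88 with 1 library left out. It was highest without 16C-ds replicate 1 and 2 without WT-ds replicate 2. On the scaled profile it was 9 and ran from 9 to 21, highest without 16C-ds replicate 2. After subtraction of the outer shoulder level, an alternative chosen after seeing the data that brings the shoulders to about 0 by construction, 27 window positions lay above, against 84, and 40 below. With the replicate block, the log2 ratio of the midGFP level was -0.45 (exact sign-flip permutation test over 3 pairs, p = 0.25, the smallest possible), and the block turned no direction. The deviations from the group mean profile, compared between libraries of the same number, had r of -0.17, 0.43 and 0.26, so the numbers were not taken as pairs. 16C-ds replicates 2 and 3 correlated best with their own number, and 16C-ds replicate 1 did not. The correlations of the steps rose to means of 0.93 to 0.98 with the moving average, which smooths them. Depth limits the shoulders most, where a WT-ds position with 0 reads allows up to 3, and coverage without strand or length does not separate kinds of reads.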
